A study of Mus musculus with 6 samples.

Results

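The 41 genes described here are the cell cycle genes of a study of the aged, pressure-loaded female mouse heart. They were chosen by symbol from the 22298 genes of the deposited expression table. All 41 symbols were found, each as 1 gene, on 18 chromosomes. They fall into 9 genes of the G1 phase, 13 genes of DNA replication and nucleotide supply, and 19 genes of mitosis and cytokinesis. Poly(A)-selected RNA was sequenced from heart in 6 libraries, all from wild-type (WT) female mice aged 18 months, 3 after sham surgery (sham 1, sham 2 and sham 3) and 3 after TAC surgery (TAC 1, TAC 2 and TAC 3). TAC usually stands for transverse aortic constriction, in which a tie around the aortic arch makes the left ventricle pump against a high pressure. Age, sex and genotype were the same in both groups, and no other agent or allele is named in the labels. The sources used here do not give the time between surgery and sampling or the part of the heart that was taken. The titles number the hearts 1 to 3 within each group, and each p-value rests on how these libraries vary. The question was how the genes of each cell cycle phase differed between TAC and sham hearts, and between the single libraries.

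A cell enters the cycle when D-type cyclins, with the kinases CDK4 and CDK6, and then E-type cyclins with CDK2 phosphorylate the retinoblastoma protein and so release E2F transcription factors. E2F switches on the genes of DNA synthesis, among them the MCM helicase, the sliding clamp PCNA and the enzymes that make nucleotides. Cyclin A and cyclin B with CDK1 then drive mitosis, and their genes are kept off in resting cells by the DREAM complex. Most cardiomyocytes of the adult mouse have left the cell cycle and respond to load by enlarging, and dividing cells in the adult heart are mostly other cells, such as fibroblasts, endothelial cells and blood-derived immune cells.

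Libraries held between 19747265 and 27549838 estimated counts, of which the 41 genes took 0.0432% to 0.0608%, the highest share being that of TAC 3. Cardiomyocyte transcripts such as Myh6 and Actc1 led the marker list fixed for that cell type, with a summed level of 35450 to 50760 CPM (the count as a share of the library, scaled with a correction for composition) in all libraries. On the first principal component of all tested genes, which held 52.6% of the variance, the sham libraries lay between -39.3 and -35.0, TAC 1 at 2.01, TAC 2 at 50.6 and TAC 3 at 58.0. TAC 1 thus stood between the sham libraries and the other TAC libraries, and results are given with and without it where it decides a call.

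Promoters are shown first because the 3 groups differ in the short sequence elements they carry. RefSeq (GRCm38.p6) gave 37 promoters for 33 of the 41 genes, each taken as the 250 bases before the transcription start. Exact matches were sought on both strands for the cell cycle genes homology region (CHR, TTTGAA or TTCGAA), which the DREAM complex binds, for the CCAAT box, which the factor NF-Y binds (CCAAT), and for the E2F element (TTTCCCGC, TTTGGCGC, TTTGCCGC or TTTCGCGC). The promoters below belong to the 2 replication genes and the 2 mitosis genes with the lowest adjusted p between TAC and sham. They are written 5′ to 3′ on the strand of the gene, with matches in capitals. Tyms lies at chr5:30073626-30073875 on the minus strand, Mcm5 at chr8:75109259-75109508 on the plus strand, Top2a at chr11:99024190-99024439 on the minus strand and Cdk1 at chr10:69352913-69353162 on the minus strand.
Tyms: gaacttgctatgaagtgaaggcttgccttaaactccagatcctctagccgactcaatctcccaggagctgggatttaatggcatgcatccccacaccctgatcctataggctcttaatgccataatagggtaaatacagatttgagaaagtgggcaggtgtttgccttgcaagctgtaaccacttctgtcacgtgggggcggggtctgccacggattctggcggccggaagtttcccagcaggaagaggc
Mcm5: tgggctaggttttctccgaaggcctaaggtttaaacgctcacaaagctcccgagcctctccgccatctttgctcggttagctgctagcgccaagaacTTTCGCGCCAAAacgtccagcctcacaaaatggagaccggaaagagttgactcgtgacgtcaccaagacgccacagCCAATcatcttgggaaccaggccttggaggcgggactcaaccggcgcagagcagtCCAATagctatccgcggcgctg
Top2a: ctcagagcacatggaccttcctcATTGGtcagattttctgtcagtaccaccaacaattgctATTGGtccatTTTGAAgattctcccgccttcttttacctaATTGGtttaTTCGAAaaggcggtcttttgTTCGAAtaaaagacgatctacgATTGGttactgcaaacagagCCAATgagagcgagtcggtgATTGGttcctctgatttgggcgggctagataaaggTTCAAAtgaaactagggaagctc
Cdk1: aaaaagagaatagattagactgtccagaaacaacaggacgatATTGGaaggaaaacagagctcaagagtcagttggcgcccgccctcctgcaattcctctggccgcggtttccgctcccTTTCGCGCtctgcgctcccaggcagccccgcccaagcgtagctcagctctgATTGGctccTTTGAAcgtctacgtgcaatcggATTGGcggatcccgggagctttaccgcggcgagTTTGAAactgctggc

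The Top2a promoter held 4 CHR matches and 6 CCAAT boxes, and that of Cdk1 held 2 CHR matches, 3 CCAAT boxes and 1 E2F element. In the Mcm5 promoter there were 2 CCAAT boxes and 2 E2F elements that overlap on opposite strands, 153 and 149 bases before the start. The Tyms promoter held no match in this window. Across the groups, a CHR match was found in 10 of 18 mitosis promoters (55.6%), 3 of 12 replication promoters (25%) and 0 of 7 G1 promoters, against 17.1% of all 32851 promoters of the same length. These 18, 12 and 7 promoters belong to 16, 11 and 6 genes. The 2 promoters of Ect2 overlap, as do those of Prc1, so their matches are not separate. CCAAT boxes were in 88.9% of the mitosis, 83.3% of the replication and 28.6% of the G1 promoters, against 33.8% of all. The E2F element was in 3 of 12 replication promoters (25%), those of Mcm5, Mcm6 and Mcm7, in 1 of 7 G1 promoters (Cdk2) and in 1 of 18 mitosis promoters (Cdk1), against 1.86% of all. Every member promoter with a CHR match, 13 of 37, also had a CCAAT box, while both stood together in 6.02% of all promoters. A match is a description of the letters and not evidence that a factor binds there.

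Transcript levels stepped down from G1 to mitosis. Compared per length in the deposited FPKM (counts scaled by gene length and library total), the mean over the 6 libraries had a median of 5.21 over the G1 genes, 3.08 over the replication genes and 0.468 over the mitosis genes. The highest level was that of Ccnd3, which encodes cyclin D3, at 36.1 FPKM, and the highest replication gene was Pcna, the clamp that holds DNA polymerase on its template, at 23.3 FPKM. No mitosis gene exceeded the 1.32 FPKM of Cdk1, the kinase that starts mitosis, and the lowest was Bub1, a kinase of the spindle checkpoint, at 0.07 FPKM. A mitosis gene was therefore read from few counts. Bub1 had counts of 2, 5 and 6 in sham and 3, 5 and 13 in TAC, failed the filter on low counts and was not tested, and the other 40 genes were tested. One count was worth between 0.0368 and 0.0513 CPM, depending on the library. Estimated counts were fractional in 11 genes, Ccnd1, Ccnd3, Cdk4, Ccne2, E2f1, Mcm7, Gins2, Tyms, Ccna2, Kif20a and Prc1. The cause was not tested, and E2f1 and Tyms share no exon bases with another annotated gene.

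**Figure D1:**
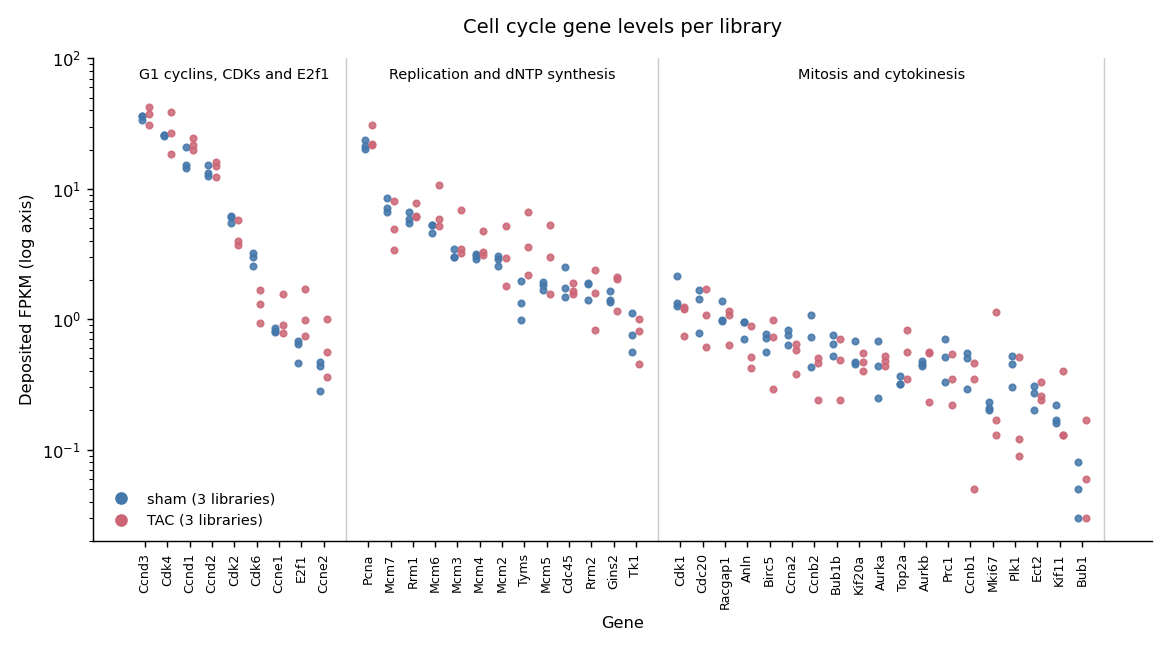
Deposited FPKM of the 41 genes (log axis) in each of the 3 sham (blue) and 3 TAC (red) libraries, with genes ordered by level within the G1, replication and mitosis groups. Levels step down from the G1 genes, up to 36.1 FPKM on average for Ccnd3, to the mitosis genes, of which none is above 1.32 FPKM on average.

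No cell cycle gene of the 40 tested passed the threshold between TAC and sham hearts (quasi-likelihood test of edgeR, adjusted p under 0.05 after Benjamini-Hochberg correction over 13708 genes), where 1.66% of all tested genes did, 153 higher and 74 lower. DESeq2's Wald test called 1 of them, Tyms, against 12.2% of all genes, and limma-voom called 0. At an unadjusted p under 0.05 there were 4, Ccnd1, E2f1, Tyms and Top2a, each higher in TAC, or 10% of the 40, where 25.6% of all tested genes reached that mark. All 3 TAC libraries lay above all 3 sham libraries for 3 genes, E2f1, Tyms and Top2a, against 18.4% of all tested genes. They lay below for 3 others, Cdk2, Ccna2 and Cdk1, against 13.1% of all tested genes. The share that differed was thus not above that of the transcriptome by any of these measures. The direction was split by phase: 7 of 9 G1 genes and 10 of 13 replication genes had a positive log2 fold change of TAC against sham, and 13 of 18 mitosis genes had a negative one, where 52.9% of all tested genes had a positive one. The medians were 0.13, 0.21 and -0.32 on the log2 scale, against 0.03 over all tested genes. Since the RNA is of bulk heart tissue, fewer cells of a type and less RNA per cell cannot be told apart in any of these values.

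**Figure D2:**
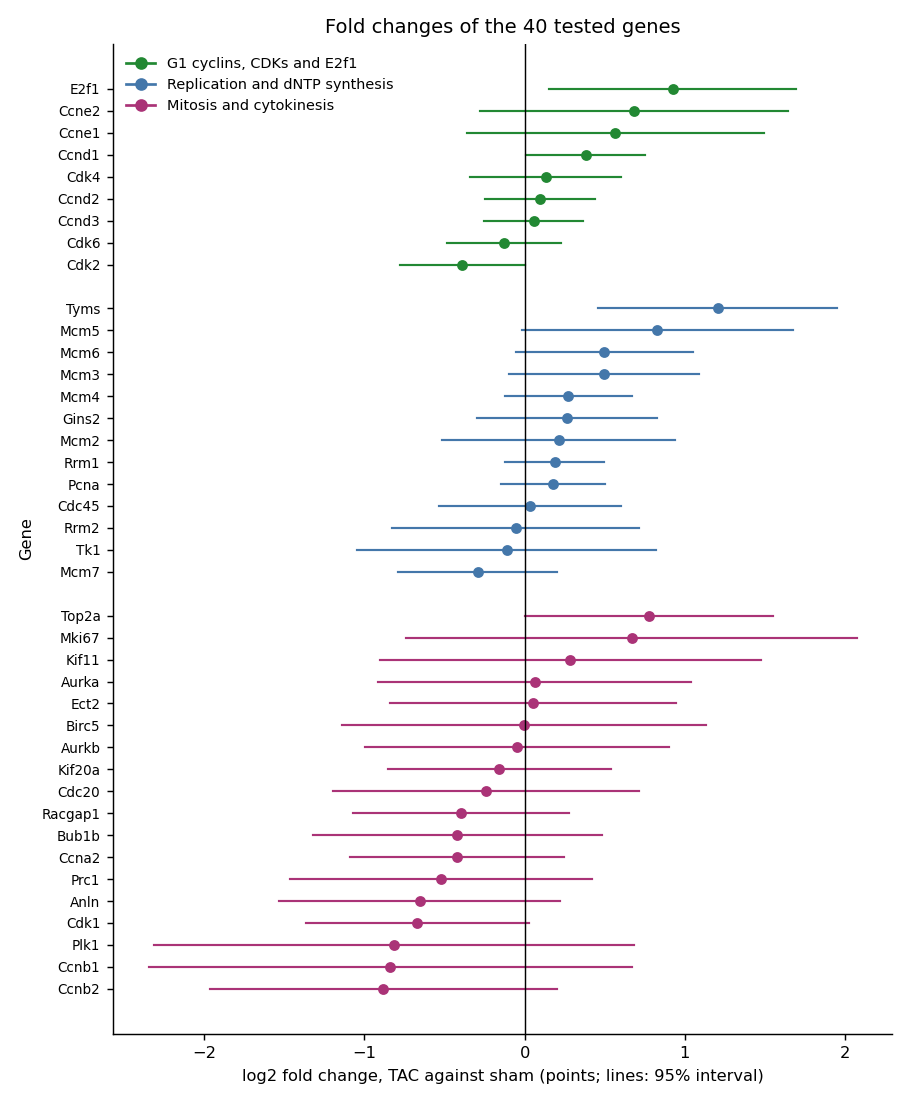
Log2 fold change of TAC against sham (points) with its 95% interval (lines) for the 40 tested genes, ordered within the G1 (green), replication (blue) and mitosis (purple) groups. Tyms has the highest value, 1.21, and Ccnb2 the lowest, -0.88, and most intervals include 0.

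Of the 9 G1 genes, E2f1 had the largest difference and the D-type cyclins and Cdk4 the highest levels. E2f1 (ENSMUSG00000027490, chromosome 2, 154559407 to 154569892, minus strand), the transcription factor that turns on the S phase genes, was at 1.90, 1.29 and 1.71 CPM in sham 1, 2 and 3 and at 2.16, 2.74 and 4.38 CPM in TAC 1, 2 and 3. The groups did not overlap, TAC 3 was the highest library, and the log2 fold change was 0.93 (SE 0.34, 95% interval 0.15 to 1.70, edgeR's adjusted p = 0.138). Ccnd1, which encodes cyclin D1, was at 79.4, 54.3 and 56.0 CPM in sham and 77.6, 82.4 and 86.7 CPM in TAC, with a log2 fold change of 0.38 (SE 0.16, edgeR's adjusted p = 0.185). Here sham 1 lay within the TAC range. The related cyclins D2 and D3 differed by less: Ccnd2 had a log2 fold change of 0.10 (SE 0.15) and Ccnd3 of 0.06 (SE 0.14).

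The kinase partners gave no common direction. Cdk4 was at 52.2, 50.8 and 48.3 CPM in sham and 55.4, 38.5 and 71.8 CPM in TAC, so that the TAC libraries lay on both sides of a narrow sham range. Cdk2, the kinase that acts with cyclins E and A, was at 12.8, 14.4 and 13.6 CPM in sham and 9.73, 8.68 and 12.7 CPM in TAC. All TAC values were below all sham values, TAC 3 only just, and the log2 fold change was -0.39 (SE 0.17, edgeR's adjusted p = 0.196). The E-type cyclins that CDK2 pairs with were low: Ccne1 had 32, 34 and 22 counts in sham and 41, 27 and 69 in TAC, and Ccne2 had 27, 35 and 17 in sham and 42, 25 and 65 in TAC. Both were highest in TAC 3 and at the sham level in TAC 2, with log2 fold changes of 0.57 and 0.68 (SE 0.40 and 0.42).

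Cdk6, the second kinase of the D-type cyclins (ENSMUSG00000040274, chromosome 5, 3341485 to 3531008, plus strand), gave different answers in the 2 deposited units. By count it was at 14.6, 14.5 and 14.96 CPM in sham and 11.2, 13.2 and 15.95 CPM in TAC, with overlapping groups and a log2 fold change of -0.13 (SE 0.15, edgeR's adjusted p = 0.620). By FPKM it was at 2.55, 3.24 and 3.02 in sham and 0.93, 1.31 and 1.67 in TAC, with no overlap and a log2 fold change of -1.14 (limma on log2 of FPKM plus 0.1, adjusted p = 0.0698). The length that ties each count to its FPKM was 5660, 4425 and 5087 bases in sham and 11503, 9901 and 10127 bases in TAC, a ratio of 2.08 between the means. The annotated exons of Cdk6 cover 13989 bases in all. Of the 11626 genes with at least 0.5 FPKM in every library, 12 (0.103%) had implied lengths that differed by over 1.5-fold between the groups with no overlap, and Cdk6 was the one such gene among the 22 cell cycle genes at that level. What changed this length was not tested.

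Among the replication genes, the enzyme gene Tyms had the largest difference. Tyms (ENSMUSG00000025747, chromosome 5, 30058202 to 30073617, minus strand) encodes thymidylate synthase, which makes the thymidine nucleotide that only DNA needs. It was at 2.46, 2.28 and 1.66 CPM in sham and 3.26, 4.52 and 7.02 CPM in TAC, that is 2.13 ± 0.420 against 4.93 ± 1.91 CPM (SD, n = 3 each). All TAC libraries were above all sham libraries, and the log2 fold change was 1.21 (SE 0.32, 95% interval 0.46 to 1.95), a 2.31-fold higher level. The adjusted p of edgeR was 0.0802, so Tyms missed the threshold of 0.05 but was within one of 0.10, as were 11.7% of all tested genes. Without TAC 1, the library nearest the sham group, Tyms passed (edgeR's adjusted p = 0.0170), as did E2f1 and Top2a, so that 7.5% of the 40 genes were called against 23.2% of all genes.

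The other nucleotide genes lay closer to the sham level. Rrm1, the large subunit of ribonucleotide reductase, was at 26.2, 22.6 and 21.3 CPM in sham and 25.5, 24.7 and 29.6 CPM in TAC, with a log2 fold change of 0.19 (SE 0.14). Rrm2, its small subunit, was at 3.59, 3.13 and 4.02 CPM in sham and 1.91, 3.52 and 4.89 CPM in TAC, and the TAC libraries spanned more than the whole sham range. Tk1, thymidine kinase, had 16, 30 and 34 counts in sham and 30, 15 and 32 in TAC, with a log2 fold change of -0.11 (SE 0.41). The intervals of Rrm2 (-0.83 to 0.72) and Tk1 (-1.04 to 0.82) were wide, and that of Rrm1 (-0.12 to 0.50) was narrower.

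The 6 genes of the MCM helicase, the ring that unwinds DNA at the replication fork, were highest in 1 TAC library, apart from Mcm7. Mcm5 (ENSMUSG00000005410, chromosome 8, 75109569 to 75128439, plus strand) was at 5.34, 5.08 and 4.57 CPM in sham and 8.43, 4.34 and 13.8 CPM in TAC. TAC 3 was the highest library and TAC 2 was below every sham library, so the groups overlapped, and the log2 fold change was 0.83 (SE 0.37, edgeR's adjusted p = 0.204). Mcm6 was at 16.01, 13.7 and 15.2 CPM in sham and 18.0, 15.5 and 30.0 CPM in TAC (a log2 fold change of 0.50, SE 0.24, edgeR's adjusted p = 0.231). Mcm3 was at 10.6, 9.16 and 8.91 CPM in sham and 11.03, 9.90 and 19.6 CPM in TAC (a log2 fold change of 0.50, SE 0.26). Both had TAC 1 and TAC 2 at or near the sham level and TAC 3 well above it. Mcm2 and Mcm4 were likewise highest in TAC 3, at 16.6 and 15.99 CPM, against at most 10.5 and 12.3 CPM in the other libraries. Mcm7 alone of the 6 had a negative log2 fold change, -0.29 (SE 0.22), with 12.4, 14.6 and 15.2 CPM in sham and 11.9, 8.03 and 14.5 CPM in TAC. Its exons overlap those of 2 other genes of the table, Ap4m1 and Cops6, and its counts were partly fractional.

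Without TAC 3 the log2 fold changes of Mcm3, Mcm5 and Mcm6 were 0.12, 0.34 and 0.15, and that of Mcm2 turned from 0.21 to -0.22. The remaining fork genes differed little. Pcna was at 36.6, 31.2 and 31.7 CPM in sham and 34.4, 34.2 and 43.9 CPM in TAC, with a log2 fold change of 0.18 (SE 0.14). Gins2 and Cdc45, which join the MCM ring to form the active helicase, had log2 fold changes of 0.26 and 0.03 (SE 0.25 and 0.25). Gins2 was highest in TAC 1, at 8.35 CPM, the single replication gene whose highest TAC library was not TAC 3. Of the 4097 annotated exon bases of Gins2, 2758 are shared with Gse1, another gene of the table, and its counts were partly fractional.

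The mitosis genes differed widely between the TAC libraries, and no direction was shared by all of them. Mki67 (ENSMUSG00000031004, chromosome 7, 135689784 to 135716361, minus strand), which encodes the proliferation antigen Ki-67, had 46, 56 and 45 counts in sham and 32, 170 and 39 in TAC. That is 2.36, 2.06 and 2.08 CPM in sham and 1.303, 7.38 and 1.66 CPM in TAC. TAC 2 was over every other library, and TAC 1 and TAC 3 were under every sham library. The log2 fold change was 0.67 (SE 0.61, edgeR's adjusted p = 0.518), and without TAC 2 it was -0.57. The implied length of Mki67 was also apart in that library, 6383 bases against 9541 to 10347 bases in the others.

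Top2a (ENSMUSG00000020914, chromosome 11, 98992943 to 99024189, minus strand), the topoisomerase that untangles sister chromosomes, was at 1.69, 1.69 and 1.89 CPM in sham and 1.91, 4.38 and 2.76 CPM in TAC. The groups did not overlap, though TAC 1 lay just above the highest sham library, and the log2 fold change was 0.78 (SE 0.34, 95% interval 0.00 to 1.55, edgeR's adjusted p = 0.194). Kif11, the motor that separates the spindle poles, also had TAC 2 highest, with 21, 22 and 16 counts in sham and 16, 45 and 14 in TAC. Birc5, which encodes survivin, a subunit of the chromosomal passenger complex, had 11, 20 and 16 counts in sham and 7, 25 and 16 in TAC. In each of these genes TAC 2 was the highest of all 6 libraries. The log2 fold changes of Kif11 and Birc5 were 0.286 and -0.003 (SE 0.518 and 0.495), and in Kif11 TAC 1 and TAC 3 were under every sham library in CPM.

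The kinase and cyclins of mitotic entry had negative log2 fold changes. Cdk1 (ENSMUSG00000019942, chromosome 10, 69335146 to 69352938, minus strand) was at 1.85, 2.32 and 1.75 CPM in sham and 1.02, 1.56 and 1.15 CPM in TAC, from 25 to 63 counts per library. All TAC values were below all sham values, and the log2 fold change was -0.67 (SE 0.30, 95% interval -1.37 to 0.03, edgeR's adjusted p = 0.210). Ccna2, which encodes cyclin A2, was at 1.90, 2.10 and 2.35 CPM in sham and 1.181, 1.74 and 1.83 CPM in TAC, also with no overlap (log2 fold change -0.42, SE 0.29, edgeR's adjusted p = 0.386). Ccnb1, cyclin B1, had 27, 20 and 26 counts in sham and 3, 27 and 13 in TAC, and Ccnb2, cyclin B2, had 13, 31 and 35 in sham and 18, 18 and 8 in TAC. Their log2 fold changes of -0.84 and -0.88 (SE 0.66 and 0.47) were the lowest of the 40 genes, and neither passed (edgeR's adjusted p = 0.449 and 0.272). The B-type cyclins thus had the largest differences in the group and also among its widest errors.

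**Figure D3:**
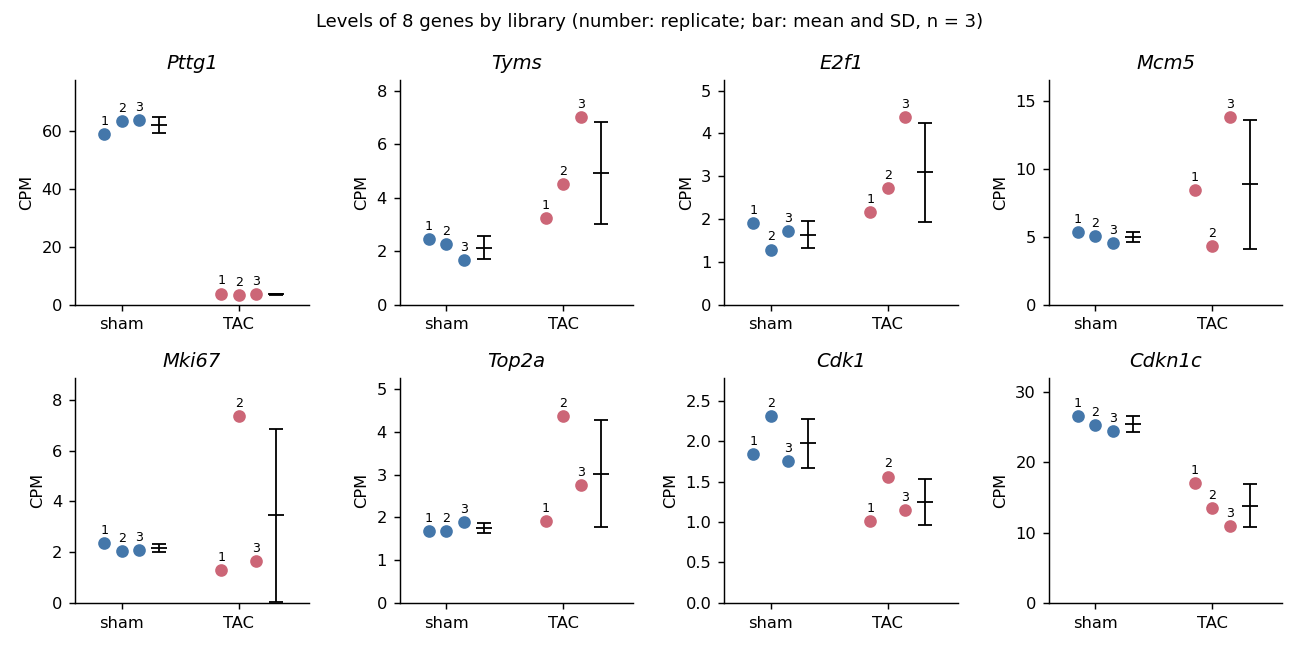
Level in CPM (linear axis) of 8 genes in each library, with the replicate number beside each point and the mean and SD of 3 libraries to its right. TAC 3 is the highest library for Tyms, E2f1 and Mcm5 and TAC 2 for Mki67 and Top2a, while Pttg1 is at 59.2 to 64.0 CPM in sham and 3.47 to 3.83 CPM in TAC.

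Of the checkpoint and exit genes, Bub1b, Cdc20, Plk1 and Aurkb lay below every sham library in TAC 1, and none passed the test. Bub1b, a checkpoint protein that restrains the anaphase-promoting complex, had 55, 53 and 50 counts in sham and 23, 61 and 40 in TAC. Cdc20, the activator of that complex, had 28, 70 and 64 counts in sham and 28, 68 and 43 in TAC. Plk1, polo-like kinase 1, had 13, 27 and 24 counts in sham and 7, 26 and 4 in TAC, so that TAC 2 was just above the sham range in CPM and the other TAC libraries were below it. Its log2 fold change was -0.81 (SE 0.65), and without TAC 2 it was -2.02 (edgeR's adjusted p = 0.154). The Aurora kinases differed little between groups: Aurka, which acts at the spindle poles, had a log2 fold change of 0.06 (SE 0.43), and Aurkb, which acts at the centromere, of -0.05 (SE 0.41).

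The genes of cytokinesis, the final cut between daughter cells, mostly had negative log2 fold changes. Anln, which encodes the actin ring scaffold anillin, had 65, 74 and 81 counts in sham and 36, 78 and 32 in TAC. Racgap1, a subunit of centralspindlin, had 73, 78 and 61 counts in sham and 54, 74 and 41 in TAC. Prc1, which bundles the microtubules of the midzone, had 24, 36 and 21 counts in sham and 17, 29 and 12 in TAC. All 3 showed TAC 2 at the sham level and TAC 1 and TAC 3 under every sham library. Kif20a, a midzone motor, and Ect2, the exchange factor that starts the furrow, had log2 fold changes of -0.16 and 0.05 (SE 0.30 and 0.39). The log2 fold changes of Anln, Racgap1 and Prc1 were -0.66 (SE 0.38), -0.40 (SE 0.29) and -0.52 (SE 0.41), and none of the 5 passed the test.

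Across the 3 groups the TAC libraries therefore differed from each other in opposite ways. TAC 3 was the highest TAC library for 8 of 9 G1 genes and 12 of 13 replication genes, and TAC 2 for 15 of 18 mitosis genes. Over all 13708 tested genes, TAC 1, TAC 2 and TAC 3 were the highest TAC library for 34.5%, 30.5% and 35.0%. TAC 2 was the lowest TAC library for 11 of 13 replication genes, and TAC 1 for 10 of 18 mitosis genes. The median log2 difference from the sham mean in TAC 1, TAC 2 and TAC 3 was 0.22, -0.12 and 0.48 for the G1 genes and 0.13, -0.02 and 0.46 for the replication genes. It was -0.78, 0.15 and -0.49 for the mitosis genes, against 0.03, 0.00 and 0.05 over all tested genes. With 1 library at each position these orders have no replicate, and no test was made of them.

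**Figure D4:**
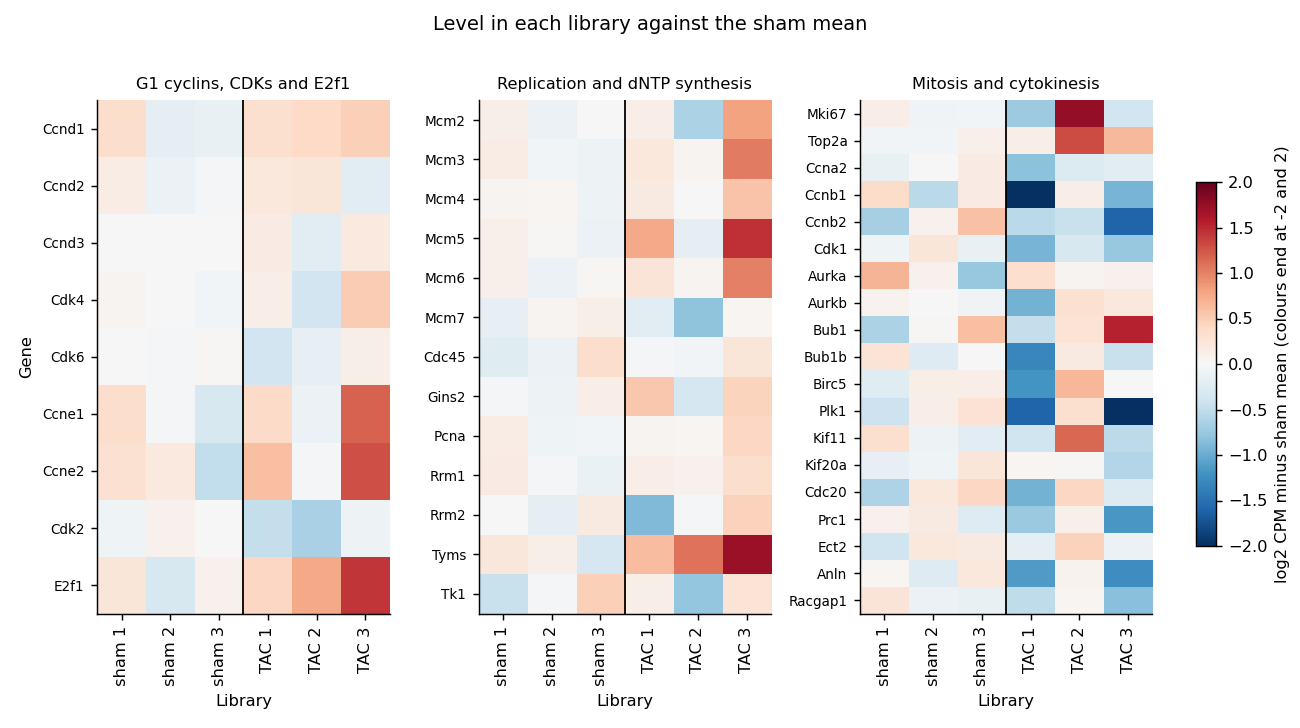
Log2 CPM of the 41 genes in each library minus the mean of the 3 sham libraries, in G1, replication and mitosis panels, with red above and blue below the sham mean and colours ending at -2 and 2. TAC 3 is red for most G1 and replication genes and TAC 2 is the reddest TAC column for 15 of the 18 tested mitosis genes.

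Summed levels showed the same split, and the sums of cell type markers are given beside them. The 13 replication genes summed to 144, 131 and 134 CPM in sham and 149.6, 129.9 and 209 CPM in TAC, so that TAC 3 was the highest library. The 19 mitosis genes summed to 29.1, 28.4 and 30.8 CPM in sham and 17.9, 39.5 and 21.1 CPM in TAC, so that TAC 2 was above and the other TAC libraries were below the sham range. In TAC 2, Mki67 and Top2a gave 7.38 and 4.38 CPM of that sum, against means of 2.17 and 1.76 CPM in sham. Of the 18 tested mitosis genes, 7 were highest of all 6 libraries in TAC 2 (38.9%, against 21.6% of all tested genes). In sham 1, sham 2 and sham 3, 4, 2 and 5 of them were highest. The 9 G1 genes summed to 279 to 321 CPM in sham and 301 to 343 CPM in TAC, with overlap. Beside these, the 8 lymphocyte markers, led by Cd79a and Cd4, summed to 6.05 to 7.76 CPM in sham and to 12.6, 33.7 and 11.5 CPM in TAC, highest in TAC 2. Of this list 0 of 6 tested markers passed. The 14 macrophage and monocyte markers, led by Lyz2 and Csf1r, summed to 602 to 721 CPM in sham and to 842, 1298 and 1137 CPM in TAC, and 5 of 14 rose (edgeR). Over all tested genes, 1.66% were called, higher or lower. In TAC 1 and TAC 3 the lymphocyte and macrophage sums were above every sham library, while the mitosis sum was below.

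The 8 neutrophil markers, led by Lcn2 and S100a9, summed to 9.38 to 17.0 CPM in sham and to 50.8, 183 and 248 CPM in TAC, highest in TAC 3, and 3 of 7 tested markers rose. The 11 markers of red cells and their precursors, led by Hbb-bs and Hba-a2, summed to 947 to 1643 CPM in sham and to 3497, 1932 and 2340 CPM in TAC, and 2 of 8 tested rose. Cardiomyocyte markers summed to 49400 to 50750 CPM in sham and to 50760, 44920 and 35450 CPM in TAC, with 0 of 8 called. Endothelial markers, led by Pecam1 and Cdh5, summed to 1567 to 1663 CPM in sham and 1292 to 1394 CPM in TAC, with 1 of 8 lower by the test. The fibroblast list, led by Dcn and Col3a1, and the smooth muscle and pericyte list, led by Rgs5 and Acta2, had 0 of 8 called each. These counts stand beside the 1.66% of all tested genes that were called. No marker of any list was at 0 in all 6 libraries. The part of these cell types in the replication and mitosis values was not tested.

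**Figure D5:**
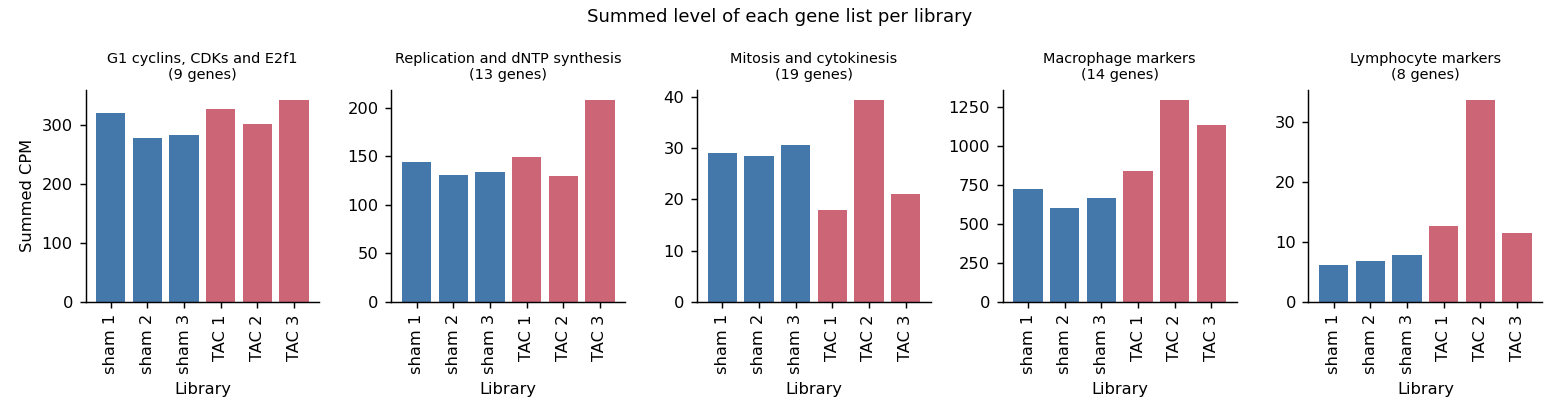
Summed CPM of the G1, replication and mitosis genes and of the macrophage and lymphocyte markers in each library (bars start at 0; blue sham, red TAC; each panel has its own axis). The replication sum is highest in TAC 3 at 209 CPM, and the mitosis and lymphocyte sums are highest in TAC 2 at 39.5 and 33.7 CPM.

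Inhibitors of the cycle were read beside the genes that drive it. Of 10 genes of CDK inhibitors and pocket proteins (the retinoblastoma family), 9 were tested and 0 passed, 5 with positive and 4 with negative log2 fold changes (median 0.08), and at an unadjusted p under 0.05 there were 2 in each direction. Among all tested genes, 25.6% reached that mark. The 2 genes of this list with the highest CPM, which is not corrected for gene length, were Rbl2 and Cdkn1a. Rbl2, the pocket protein p130 of the DREAM complex, had a log2 fold change of -0.46 (SE 0.18, edgeR's adjusted p = 0.167). Cdkn1a, which encodes p21, had a log2 fold change of 0.61 (SE 0.34, edgeR's adjusted p = 0.287). Cdkn1c, which encodes the inhibitor p57 and is named after its values were seen, was at 26.6, 25.3 and 24.4 CPM in sham and 17.1, 13.5 and 10.9 CPM in TAC. No TAC library reached a sham library, and the log2 fold change of -0.88 (SE 0.17) stood at the threshold (edgeR's adjusted p = 0.0504, and 4.1e-04 by DESeq2). The adjusted p of edgeR of Cdkn1c ranged from 0.0064 without TAC 1 to 0.225 over the fits that each left out 1 library. Cdkn2a, whose products p16 and p19ARF mark senescent cells, was too low to test, with counts of 0, 4 and 1 in sham and 6, 18 and 8 in TAC (also named after its values were seen).

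Of the 16 factors of the E2F, DREAM and MuvB groups other than E2f1, 0 passed (edgeR), 10 were positive and 6 negative (median 0.06), and 1 was under an unadjusted p of 0.05. Rbbp4 and E2f6, the 2 of highest CPM, had log2 fold changes of -0.08 and -0.09 (SE 0.11 and 0.11). Foxm1, the factor that activates the late mitosis genes, had 33, 52 and 37 counts in sham and 33, 30 and 26 in TAC. Its log2 fold change was -0.50 (SE 0.27, edgeR's adjusted p = 0.282), and it is named after its values were seen. A wider list of 45 other replication genes had 43 tested and 0 called, with 30 positive and 13 negative log2 fold changes, a median of 0.14, and 8 under an unadjusted p of 0.05. Beside both lists, 25.6% of all tested genes were under that p. The 2 genes of the wider list with the highest CPM, which is not corrected for gene length, were Rpa1 and Dnmt1. Rpa1, of the single-strand binding complex, and Dnmt1, the maintenance DNA methyltransferase, had log2 fold changes of -0.12 and 0.33 (SE 0.13 and 0.23). TAC 3 was the highest TAC library for 26 of the 43 genes (60.5%).

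Among the 43 genes tested, 25 (58.1%) were highest of all 6 libraries in TAC 3, against 26.8% of all tested genes. Uhrf1, Cdc6 and Pole2 are 3 of these, and they are named after their values were seen. Uhrf1, which guides Dnmt1 to new DNA, had 45, 39 and 41 counts in sham and 65, 49 and 182 in TAC. Cdc6, which loads the MCM ring, had 24, 15 and 26 counts in sham and 28, 30 and 79 in TAC. Pole2, a subunit of the leading-strand polymerase, had 27, 26 and 22 counts in sham and 35, 38 and 85 in TAC. In all 3 genes TAC 3 was over every other library, and in Pole2 the other TAC libraries were also above every sham library in CPM. The median of the 43 genes was 0.13, -0.06 and 0.40 in TAC 1, TAC 2 and TAC 3 against the sham mean, beside the 0.13, -0.02 and 0.46 of the 13 replication members.

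Of 61 other mitosis genes, 41 were tested and 1 was called, with 19 positive and 22 negative log2 fold changes and a median of -0.08. Over all tested genes, 1.66% were called. TAC 2 was the highest TAC library for 21 of the 41 (51.2%). The called gene was Pttg1 (ENSMUSG00000020415, chromosome 11, 43420250 to 43426251, minus strand), which encodes securin, the protein that holds separase inactive until anaphase. Pttg1 was at 59.2, 63.6 and 64.0 CPM in sham and 3.83, 3.47 and 3.57 CPM in TAC, from 1153, 1730 and 1385 counts against 94, 80 and 84. Its log2 fold change of TAC against sham was -4.10 (SE 0.13, edgeR's adjusted p = 8.3e-06), a level 17.1-fold lower, and it had the smallest p of all 13708 genes. The labels call both groups WT and give no strain or litter, so an effect of TAC and another difference between the mice of the groups cannot be told apart here. The spread within each group was a small part of this difference, and TAC 1 was near the other TAC libraries. Pttg1 was called in all 6 fits that left out 1 library (edgeR's adjusted p 3.5e-05 to 3.4e-04).

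In FPKM, Pttg1 was at 85.7 ± 5.21 in sham and 5.01 ± 0.167 in TAC (SD, n = 3 each). By the same unit Cdk1 was at 1.58 ± 0.501 in sham and 1.06 ± 0.278 in TAC. Espl1, the gene of its target separase, had 40, 37 and 52 counts in sham and 57, 63 and 42 in TAC (log2 fold change 0.24, SE 0.31, edgeR's adjusted p = 0.654). Espl1 is also named after its values were seen. Of the 6 tested genes within 500 kb of Pttg1, 0 were called. The lowest of them was C1qtnf2, with a log2 fold change of -1.19 (SE 0.28, edgeR's adjusted p = 0.0642), and Slu7, the nearest to Pttg1, had -0.02 (SE 0.12).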

How the data were processed

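RNA-seq of heart was analysed in 6 libraries, 3 sham and 3 TAC, grouped and numbered by their titles. Libraries of oligo(dT)-enriched RNA were sequenced on an Illumina NovaSeq, per the labels' protocols. These do not mention strand, so whether reads of overlapping genes were told apart by strand is not known. Exon bases of 13 of the 41 genes are shared with another gene of the table. Per the file headers, the deposited table gives an estimated count and an FPKM value per gene and library. The submitters' processing notes name StringTie 1.3.1, HISAT2, Bowtie2 2.2.8, DESeq2 and the build GRCm38, without saying which tool made which column. Of the nonzero genes, 14.7% had fractional counts, which were rounded. Symbols and coordinates came from GENCODE M21 (22255 of 22298 identifiers matched).

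Counts were tested with edgeR 4.0.16 under R 4.3.3 (glmQLFit and glmQLFTest after TMM scaling and filterByExpr at a minimum count of 10, two-sided, Benjamini-Hochberg over 13708 genes, threshold 0.05). CPM are on TMM-scaled library sizes, the SE is the log2 fold change divided by the square root of F, and the common dispersion was 0.0473. Depth was 19747265 to 27549838 counts per library. Libraries of a group differed beyond counting error (chi-square over degrees of freedom 11.6 to 100.2), so each was kept. FPKM was used to compare levels between genes. The implied length is the count divided by FPKM and the library total. The fit was tested on simulated data.

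All 41 members are named. Each pathway list gives up to 4 called genes or, with none, the 2 of highest CPM, each cell type list its 2 of highest CPM, and others are marked as named after their values were seen. Members and lists were chosen with earlier results of these data known. Alternatives were edgeR with RLE and upper-quartile factors, DESeq2 1.42.0, limma-voom (limma 3.58.1), no filter on low counts, a threshold of 0.10, a replicate block, no mitochondrially encoded genes and each library left out. limma-trend on log2 of FPKM plus 0.1 was chosen after seeing the data.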

Additional observations from a re-analysis of the deposited data

How the results depend on the processing

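Counts of the tested mitosis members ranged from 3 to 170 per library. Of 600 pairs of a tested member and an alternative, 570 kept their direction and their side of the threshold, 25 reversed and 5 newly passed, and 25 of the 40 members kept 1 direction throughout. Over all genes, 153 were higher and 74 lower. DESeq2 gave 1071 and 598, a threshold of 0.10 gave 1131 and 479, the replicate block gave 48 and 26, limma-voom gave 96 higher, and limma on FPKM gave 89 higher. Leaving out 1 library gave 4 to 1837 higher and 8 to 1392 lower, the highest without TAC 1. The cause of these changes was not tested, and each fit that left out 1 library also had fewer libraries than the main fit.

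Replication members had 1 higher under DESeq2 and at 0.10 (Tyms), and 0 to 1 without 1 library. G1 and mitosis members also had 0 to 1 higher without 1 library, the 1 being E2f1 and Top2a without TAC 1. CDK inhibitors and pocket proteins had 1 higher and 1 lower under DESeq2 and at 0.10, 1 lower on FPKM, and 0 to 2 higher and 0 to 3 lower without 1 library. The E2F, DREAM and MuvB factors had 0 to 1 in each direction without 1 library. Other replication genes had 1 lower under DESeq2, 1 in each direction at 0.10, and 0 to 1 higher and 0 to 2 lower without 1 library. Other mitosis genes had 1 higher under DESeq2 and at 0.10 and 0 to 2 higher without 1 library. The causes of these changes were not tested.

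Members near 0 turned sign without 1 library, with log2 fold changes from -0.013 to 0.21 for Ccnd2, -0.038 to 0.15 for Ccnd3, -0.12 to 0.31 for Cdk4, -0.22 to 0.47 for Mcm2, -0.11 to 0.23 for Cdc45, -0.41 to 0.22 for Rrm2 and -0.33 to 0.15 for Tk1. The ranges were -0.57 to 1.06 for Mki67, -0.24 to 0.42 for Aurka, -0.29 to 0.25 for Aurkb, -0.53 to 0.36 for Birc5, -0.51 to 0.56 for Kif11, -0.28 to 0.005 for Kif20a, -0.68 to 0.024 for Cdc20 and -0.21 to 0.16 for Ect2. On FPKM, Cdc45 was at -0.13. Without 1 library the group medians ranged from 0.10 to 0.31 for G1, 0.09 to 0.36 for replication and -0.63 to -0.19 for mitosis, and kept their signs.

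No pairing of the libraries by replicate number was seen, though 3 libraries per group are too few to decide whether they were paired. Deviations of same-numbered libraries correlated at 0.03, -0.12 and -0.02 for numbers 1, 2 and 3, and sham 2 correlated best with TAC 3 (0.13). The replicate block left 0 members called, as without it.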

Other observations

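A few other cell cycle genes came near the threshold, and are named here because their adjusted p was under 0.10 (edgeR), as was that of 11.7% of all tested genes. Rb1, which encodes the retinoblastoma protein, had 410, 607 and 401 counts in sham and 634, 728 and 773 in TAC, or 0.54 as a log2 fold change (SE 0.14, adjusted p = 0.0759). Smc2, a core subunit of condensin, had 26, 46 and 17 counts in sham and 56, 81 and 91 in TAC (1.33, SE 0.36, adjusted p = 0.0802). Pola1, the catalytic subunit of DNA polymerase alpha, had 70, 97 and 64 counts in sham and 129, 119 and 117 in TAC (0.60, SE 0.19, adjusted p = 0.0993). Dut, which keeps uracil out of DNA by destroying dUTP, had 304, 412 and 364 counts in sham and 325, 206 and 191 in TAC (-0.65, SE 0.20, adjusted p = 0.0964). In Rb1, Smc2 and Pola1 every TAC library was above every sham library in CPM, and in Dut every TAC library was below.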
